A study of Mus musculus with 1104 samples.

Results

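Liver was set against 12 other organs of the same mouse strain at the onset of a high-fat diet, at 0 days on it, to describe what sets liver transcripts apart before the diet could act. The comparison used 6 liver libraries and 72 libraries of the other organs, 78 of the 1104 libraries in the series, and gave each organ's mean the same weight. The other organs, with 6 libraries each, were small intestine and pancreas, 3 fat depots (brown fat from between the shoulder blades, and white fat from the epididymal and inguinal sites), gastrocnemius and soleus muscle, and, from the head, pituitary gland, olfactory bulb, neocortex, hypothalamus and hippocampus. Every library came from male wild type C57BL/6 mice (C57BL/6J in the series' design text) of 8 weeks of age, at 0 days of a diet with 60% of its calories from fat, so the groups differed by organ and not by strain, sex, genotype, age or time. Polyadenylated RNA was sequenced and reads were counted per gene. The labels give 6 mice for a time point but do not tie a replicate number in one organ to the same mouse in another.

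Liver is built mostly of hepatocytes, which secrete the bulk of the plasma proteins, store and release glucose, turn amino acid nitrogen into urea, make bile acids and ketone bodies, and oxidise and conjugate drugs. Resident macrophages (Kupffer cells), sinusoidal endothelial cells, vitamin A storing stellate cells and bile duct cells make up the rest. The hepatocyte programme is known to be held up by a small circle of transcription factors of the HNF1, HNF4, FOXA and C/EBP families. Each library holds the RNA of a whole piece of organ, so fewer cells of a type and less RNA per cell cannot be told apart here.

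Total counts ran between 10138424 and 14330068 in the liver libraries and between 8462811 and 27036098 in all 78. Levels are given in CPM, a gene's counts divided by the library size after TMM scaling, which offsets the few very abundant transcripts of an organ, so the CPM of a library need not sum to the same total. Epididymal fat replicate 1 held far more of several liver transcripts than its 5 fellow libraries: Alb had 21388 counts in it and 94 to 240 in the others, and Fgb 703 counts against 0 or 1. Its median correlation with its own organ was 0.929, against 0.983 to 0.988 for the others, and the source of these transcripts was not tested. Brown fat replicate 1 likewise held 165 counts of Alb against 0 to 3 in its fellows. Inguinal fat held 234 to 825 counts of Alb and 7 to 1130 of Mup17 over its 6 libraries. Soleus replicate 1 (0.900) and pancreas replicate 6 (0.944) also correlated less well with their organs. The ranges elsewhere given below include epididymal fat replicate 1, which holds the upper end for Alb, Ahsg, Arg1, Hamp, Mup3 and Gcgr among others. A printed organ mean that it moved by over 1.5 times is also given without it.

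The liver label matched its defining markers. Alb (albumin; chromosome 5, 90460897 to 90476602, plus strand, GRCm38) had 92290.5, 98639 and 111967 CPM as the lowest, median and highest of the 6 livers, and 0 to 1058 CPM in the 72 other libraries. Cyp3a11, a major drug-oxidising P450 of mouse liver, had 5177, 6108 and 8066 CPM in liver and at most 1406 CPM elsewhere. Ttr (transthyretin, a thyroid hormone and retinol carrier) had 6152, 6575 and 7005 CPM in liver and at most 2899.5 CPM elsewhere, in hippocampus. For these 3 genes all 6 livers lay above all 72 other libraries. Of marker lists for other organs, neuron markers were at 0 in all livers for 5 of 10 genes (Snap25, Tubb3, Stmn2, Gad1 and Nefl), skeletal muscle markers for 7 of 12 and pancreatic acinar markers for 12 of 15. The summed counts of these lists per liver library were 186 to 278 for neuron, 10 to 24 for muscle, 149 to 295 for acinar and 0 to 4 for pituitary hormone genes. Adipocyte markers summed to 19991 to 31580 counts, most of them from Car3, with Plin1, Lep and Ucp1 at 0, and intestinal markers to 1241 to 2184, with Sis, Cdx2 and Rbp2 at 0.

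The regions just before the starts of 5 plasma protein genes are shown because the counts below turn on such genes: albumin, the vitamin D binding protein Gc, and the 3 fibrinogen chains Fga, Fgb and Fgg, which lie side by side on chromosome 3. They are 5 of 8 such windows that were read and were picked with the matches known; of the other 3, Serpinc1 held no match to the motifs below, and Ambp and Apoh only a FOXA match. Each is the 200 bases before the RefSeq start on GRCm38.p6, read 5′ to 3′ on the gene's strand: chr5:90460670-90460869 (plus) for Alb, chr5:89457899-89458098 (minus) for Gc, chr3:83025953-83026152 (plus) for Fga, chr3:83049864-83050063 (minus) for Fgb and chr3:83007524-83007723 (plus) for Fgg. Capitals mark matches on either strand to 4 motifs: the HNF1 motif GTTAAT (one arm of its site), the HNF4 motif CAAAGTNCA, the C/EBP motif TTGCNNAA and the FOXA motif TGTTTNC.
Alb: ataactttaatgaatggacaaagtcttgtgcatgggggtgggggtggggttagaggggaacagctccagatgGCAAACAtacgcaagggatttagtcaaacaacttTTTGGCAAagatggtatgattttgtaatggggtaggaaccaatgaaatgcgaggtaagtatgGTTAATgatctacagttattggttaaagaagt
Gc: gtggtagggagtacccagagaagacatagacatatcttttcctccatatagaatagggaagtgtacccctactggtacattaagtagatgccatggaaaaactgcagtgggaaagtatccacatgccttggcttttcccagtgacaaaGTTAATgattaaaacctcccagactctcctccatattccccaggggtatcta
Fga: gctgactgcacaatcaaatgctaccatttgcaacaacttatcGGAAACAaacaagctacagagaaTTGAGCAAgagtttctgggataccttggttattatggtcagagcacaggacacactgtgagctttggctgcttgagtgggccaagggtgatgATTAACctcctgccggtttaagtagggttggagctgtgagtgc
Fgb: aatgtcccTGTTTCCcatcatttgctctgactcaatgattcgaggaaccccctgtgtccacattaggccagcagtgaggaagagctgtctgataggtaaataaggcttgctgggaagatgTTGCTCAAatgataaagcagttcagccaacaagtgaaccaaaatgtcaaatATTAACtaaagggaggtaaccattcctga
Fgg: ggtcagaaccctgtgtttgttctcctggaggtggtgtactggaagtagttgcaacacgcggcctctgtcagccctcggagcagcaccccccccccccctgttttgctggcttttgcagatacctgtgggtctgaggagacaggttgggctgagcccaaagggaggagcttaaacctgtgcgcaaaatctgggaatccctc
The HNF1 match began 32 bases before the start of Alb, 52 before Gc, 43 before Fga and 29 before Fgb. Alb, Fga and Fgb also held a C/EBP match (94, 135 and 80 bases before the start) and a FOXA match (128, 158 and 192 bases before it), while the Fgg window held none of the 4. Over windows of 300 bases (250 before and 50 after the start), the HNF1 motif was in 32.1% of 84 windows of plasma protein genes highest in liver, in 10.7% of 1095 windows of all genes highest in liver, and in 5.18% of 16683 windows of all genes tested. C/EBP matches were in 31.0%, 14.2% and 9.2% of these windows, FOXA matches in 42.9%, 22.1% and 16.1%, and HNF4 matches in 3.57%, 3.93% and 1.3%. The GC content of the 3 sets of windows was 49.1%, 55.7% and 59.3%, and its part in the shares of these AT-rich letters was not tested. A base could count for more than 1 motif, and a match describes letters, not binding.

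Of 16740 genes tested, 5781 (34.5%) were higher in liver than the equally weighted mean of the other organs and 6353 (38%) lower, by edgeR's quasi-likelihood test at a Benjamini-Hochberg adjusted p under 0.05. This mean of organs, here and below, was taken on the log2 scale and is thus a geometric mean. A gene high in a few organs alone can be called higher and still lie below an arithmetic mean, as Syt1 did (-3.69). The median log2 fold change over all genes was -0.24. Higher genes were 47.6% of the calls, and 26.7% when libraries were scaled by their totals alone, which moved the median of all genes to -0.85. A gene was called highest in liver when it was higher than in each of the 12 organs taken singly, by the largest of the 12 p-values, adjusted over all genes; 1108 genes (6.62%) met this, and 915 (5.47%) were lowest in liver by the same rule. Of the 1108 genes, 754 were at least 2-fold, 303 at least 10-fold and 176 at least 100-fold above the next organ, and in 978 all 6 livers lay above all 72 other libraries. These genes, chosen for being high in liver, took 52.5% to 53.5% of the counts of a liver library.

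**Figure D1:**
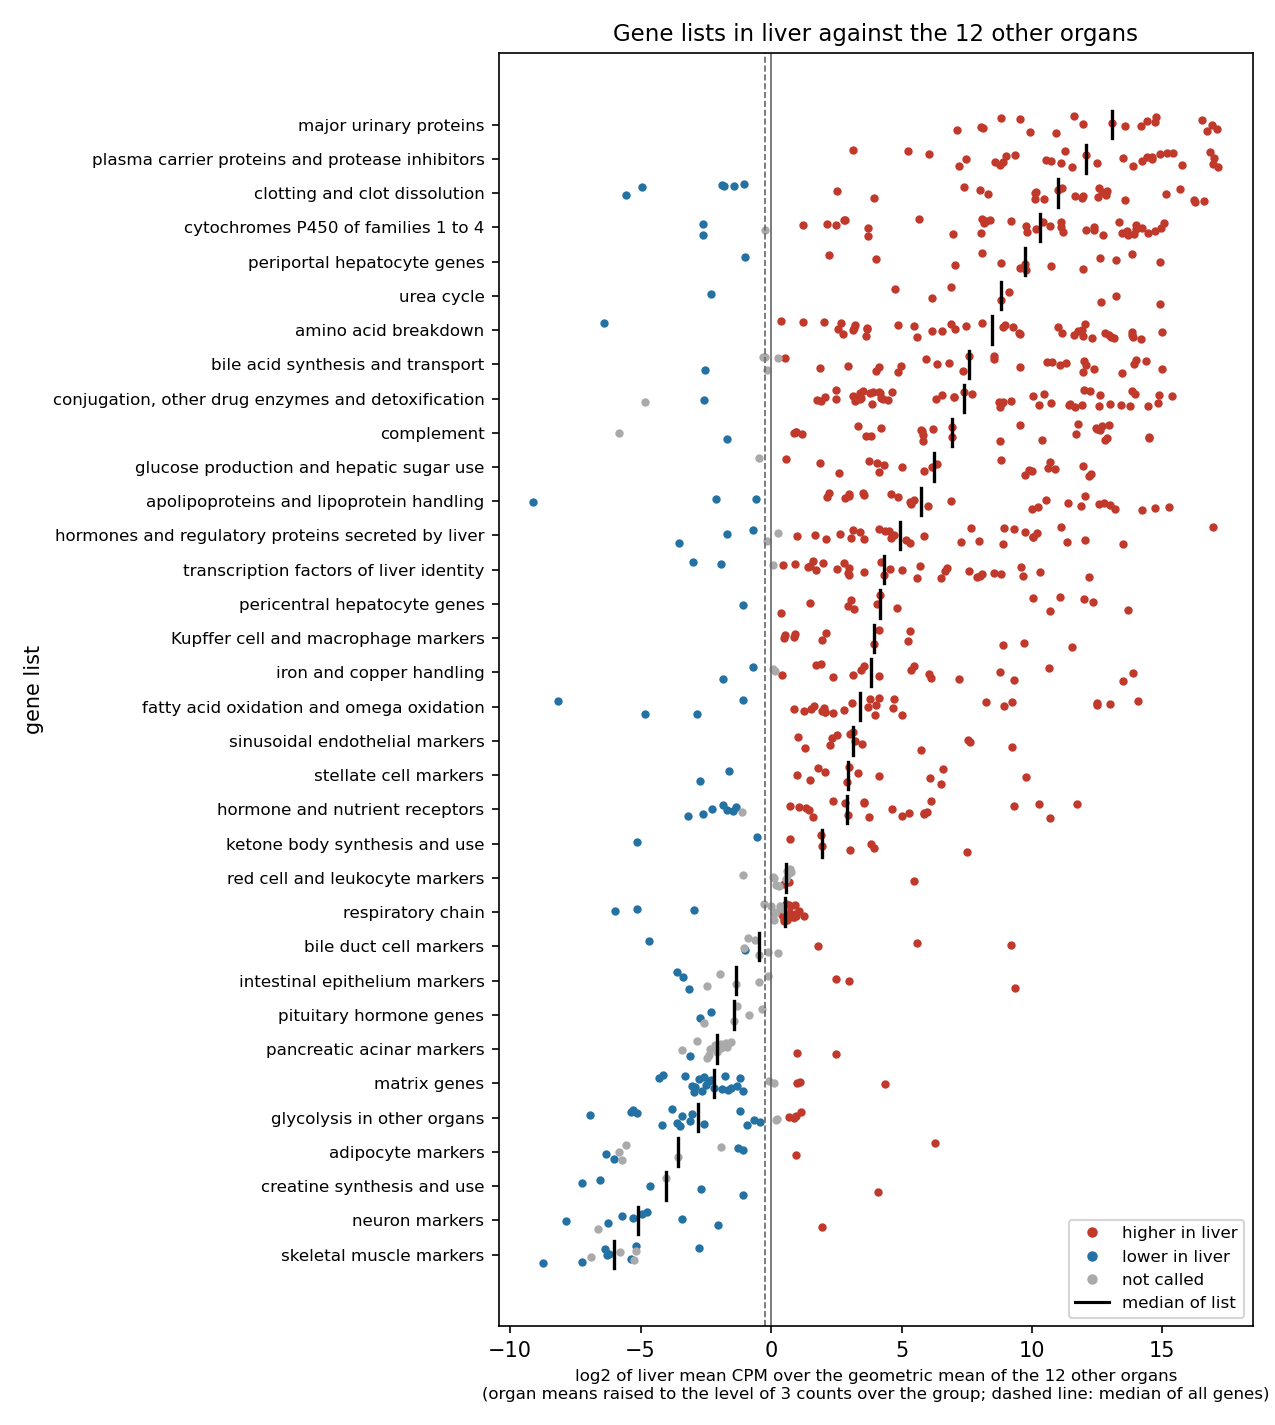
Members of the gene lists (1 list per line, 1 point per gene) by the log2 of the liver mean over the geometric mean of the 12 other organs, with organ means raised to the level of 3 counts over the group; red points were called higher in liver, blue lower, grey not called, black bars are list medians and the dashed line is the median of all genes. Secreted and metabolic lists of the hepatocyte lie to the right, up to the major urinary proteins at 13.05, while glycolysis, creatine, neuron and muscle lists lie left of 0.

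Genes of secreted plasma proteins were higher in liver nearly throughout. The lists of carrier proteins and protease inhibitors, clotting, complement and lipoproteins together took 25.1% to 25.9% of the counts in a liver library and at most 5.55% in another. Among carriers and inhibitors all 31 genes tested were higher in liver and 29 were highest, with a median log2 fold change of 11.94. Ahsg (fetuin-A, an inhibitor of calcification) had 11247, 12385 and 12728 CPM as lowest, median and highest of the livers, and 0 to 77 CPM elsewhere. Trf (transferrin, the iron carrier) had 17568, 18997 and 19801 CPM in liver and 10 to 3534 CPM elsewhere, with 2573 CPM in epididymal fat as the next organ, 7.33-fold below liver. All livers stood above all other libraries for both. Exceptions to the call of highest in liver were Ttr and Hp (haptoglobin, which binds free haemoglobin), at 3499.8 ± 442 CPM in liver and 3371 CPM in epididymal fat. That difference did not pass the test in a fit of the 2 organs, which was scaled on them alone (adjusted p = 0.894, edgeR's quasi-likelihood test). Such fitted fold changes of genes near 0 elsewhere rest on the prior count of the fit and are no bounds, so levels lead here.

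Clotting genes were mostly higher in liver, with a few clear exceptions. Of 31 genes, 25 were higher in liver, 24 of them highest, and 6 lower, with a median log2 fold change of 11.39. Fibrinogen was high through all 3 chains: Fgb had 6389, 6936 and 7397 CPM in the livers and at most 34.8 elsewhere, Fga 6861, 7471 and 8108 CPM and at most 39.3, and Fgg 4482, 5136 and 5462 CPM and at most 30.6. Those highest values elsewhere came from epididymal fat replicate 1, without which no organ mean passed 0.151, 0.682 and 0.106 CPM for Fgb, Fga and Fgg. Prothrombin (F2, 2277 ± 76.2 CPM), plasminogen (Plg, 3884 ± 191 CPM), antithrombin (Serpinc1, 2784 ± 92.3 CPM) and factors F5, F7, F9, F10, F11 and F12 were likewise highest in liver (SD, n = 6). The 6 lower genes are known from endothelial cells, macrophages and other tissues: Vwf, the platelet tether, had 10.6 ± 1.71 CPM in liver and 105 CPM in epididymal fat (log2 fold change -1.04 ± 0.22, SE). Plat (tissue plasminogen activator) had 0.562 ± 0.4 CPM in liver and was lowest there (-4.97 ± 0.24), and F13a1, the catalytic chain of factor XIII, had 0.165 ± 0.205 CPM (-5.50 ± 0.44), while its carrier chain F13b was highest in liver at 377 ± 18.8 CPM.

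Complement genes were likewise mostly higher. Of 31 genes 29 were higher and 21 highest in liver, with a median of 6.94. C3, the hub of the cascade, had 7996, 10590.2 and 11891 CPM in the livers and 0.0322 to 2179 CPM elsewhere, 6.23-fold above inguinal fat as the next organ. The pore-forming chains C8a (1392 ± 199 CPM) and C9 (1171 ± 158 CPM) were highest in liver, and no other organ averaged over 2.01 CPM, or over 0.822 CPM without epididymal fat replicate 1. C1qa, C1qb and C1qc, chains of the recognition molecule that macrophages make, were higher than the mean of organs but stood below inguinal fat, C1qa at 57.5 ± 8.57 CPM in liver and 159 CPM in inguinal fat. C7, the remaining pore component, was lower (1.11 ± 0.314 CPM in liver and 218 CPM in epididymal fat; log2 fold change -1.68 ± 0.37). Cfd (adipsin), at 0.129 ± 0.141 CPM in liver and 9534 CPM in epididymal fat, was not called, and the cause was not tested.

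Lipoprotein genes were shared with small intestine, the other organ that packs dietary or stored fat for the blood. Of 30 genes 27 were higher in liver, 18 highest and 3 lower, with a median of 6.35, and the list took 4.72% to 5.01% of the counts in liver and 2.94% to 3.27% in small intestine. Apob, the scaffold of the particles, had 9257, 10874 and 12526 CPM in liver and 6280.5 CPM on average in small intestine, and Apoa1, the main protein of HDL, had 10197, 12781 and 13675 CPM in liver and 7953 CPM in small intestine. Both were higher in every liver than in every other library but missed the call of highest in liver. In fits of liver and small intestine alone, both were higher in liver (Apob by 0.77 on the log2 scale, adjusted p = 5.92e-07; Apoa1 by 0.62, adjusted p = 1.44e-05; edgeR's quasi-likelihood test). Ttr, Cyp3a11 and Fabp1, the fatty acid binding protein of liver and gut (3403 ± 428 CPM in liver and 1686 CPM in small intestine), missed that call likewise and met it once epididymal fat replicate 1 was left out, while Apob and Apoa1 still missed it. Apoe had 25606, 28404 and 30294 CPM in liver and at most 5000.0 CPM elsewhere, 6.79-fold above epididymal fat. Apoa2 (6372 ± 293 CPM), Apoa5 (1906 ± 278 CPM) and Apoc3 (1907 ± 163 CPM) were highest in liver. Apoa4 went the other way, with 178 ± 51.3 CPM in liver and 11517 CPM in small intestine, as did Mttp, which loads lipid on to Apob, with 559 ± 37.4 CPM in liver and 3092 CPM in small intestine. Lpl, the lipase of fat and muscle capillaries, had 40.3 ± 13.3 CPM in liver and 8807 CPM in brown fat (-2.13 ± 0.21). Apod had no count in any liver and was at least 554-fold lower than the geometric mean of the other organs, with 3 counts over the liver group as the floor.

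**Figure D2:**
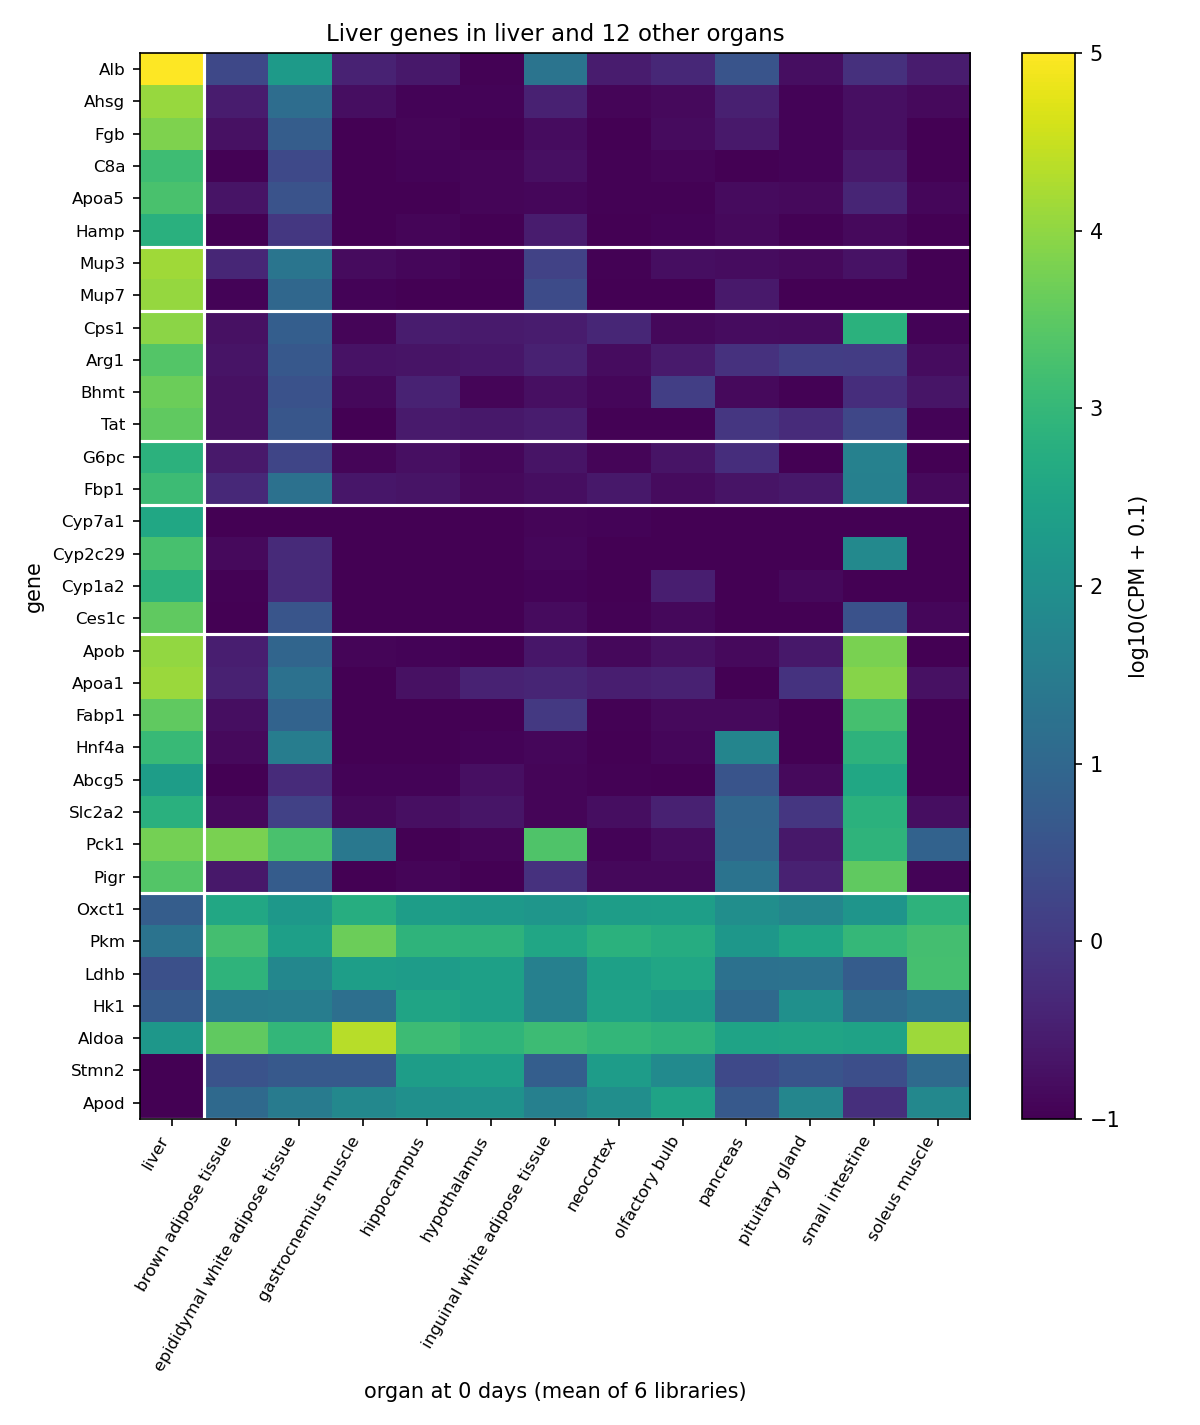
Mean levels (log10 of CPM + 0.1, n = 6 libraries a column) of selected genes in liver, at the left, and the 12 other organs; white lines part plasma proteins, urinary proteins, nitrogen, sugar, bile and drug genes, genes shared with another organ, and genes low in liver. Small intestine is bright beside liver for Cps1, Apob, Apoa1, Fabp1, Hnf4a and Abcg5, and the faint epididymal column for plasma proteins comes mainly from its replicate 1.

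Major urinary proteins, small pheromone carriers that male mouse livers secrete into urine through the blood, were highest in liver in all 19 genes on the list and in all 20 Mup genes tested. DESeq2 kept that call for 7 of the 20, and the cause was not tested. The list took 2.15% to 4.19% of the counts of a liver. Mup3 had 12757, 13616 and 14967 CPM across the livers and at most 129.6 CPM elsewhere. Mup7 spread wider, with 4850.3, 11593 and 17169 CPM, and Mup17 wider still, with 393, 8376 and 17292 CPM. These genes are near-identical copies in one array on chromosome 4, so how reads were shared among them, and with it each gene's own value, is uncertain.

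Hormones and regulatory proteins that liver secretes were mostly higher, 31 of 36 genes, with 21 highest, 3 lower and a median of 4.95. Hamp (hepcidin, the hormone that closes the iron exporter) had 477, 686 and 742 CPM in liver and at most 5 CPM elsewhere. Igf1, the growth hormone dependent growth factor, had 658, 893 and 985 CPM in liver and 2.98 to 254 CPM elsewhere, 4.19-fold above epididymal fat. Igfbp1 (190.4 ± 70.5 CPM) and Igfals (144 ± 35.2 CPM) were highest in liver too. Selenop, the selenium carrier, reached 9677 ± 540.4 CPM in liver and 5964 CPM in small intestine. Fgf21, the fasting hormone, was at 0.569 ± 0.392 CPM in liver and 8.81 CPM in pancreas. Lower in liver were Bmp6, the signal that induces hepcidin (7.7 ± 1.69 CPM; -0.69 ± 0.19) and the fetal growth factor Igf2 (-4.56 ± 0.83). Among 22 genes of iron and copper handling 18 were higher, 11 highest and 2 lower, with a median of 3.84. Tfr2, the iron sensor of hepatocytes, had 594 ± 27.4 CPM and was highest in liver, while Tfrc, the general uptake receptor, had 20.3 ± 6.35 CPM in liver and 342 CPM in soleus (-1.83 ± 0.18).

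Urea cycle and amino acid breakdown genes were higher in liver in all but 2 cases. Of 9 urea cycle genes 8 were higher and 7 highest, with a median of 8.79; the list took 1.11% to 1.40% of liver counts and 0.167% to 0.188% of those of small intestine, which makes citrulline with the same first enzymes. Cps1, the entry step, had 7892, 9009 and 10300.3 CPM in liver and 662 CPM in small intestine, 13.7-fold lower than liver. Ass1 had 3227, 4009 and 4988 CPM in liver and 1.02 to 102 CPM elsewhere. Arg1, the urea-releasing arginase, had 2189.8, 2382 and 2819.5 CPM in liver and 0 to 19 CPM elsewhere, whereas the other arginase, Arg2, had 0.547 ± 0.281 CPM in liver and 493 CPM in small intestine (-2.21 ± 0.48). Nags, which makes the activator of Cps1, missed the call of highest in liver at 83.6 ± 8.31 CPM against 61.7 CPM in small intestine. Of 44 amino acid breakdown genes 43 were higher and 36 highest, with a median of 8.46. Hpd (3243 ± 640.0 CPM), of tyrosine breakdown, and Tdo2 (3153 ± 886 CPM), of tryptophan breakdown, were highest in liver. Tat, the glucocorticoid-induced tyrosine transaminase, varied most of the abundant ones, with 1376, 3504 and 5506 CPM. Of the branched chain transaminases, Bcat1 was the 1 lower gene (0.0207 ± 0.0508 CPM, -7.51 ± 0.70). Bcat2 was called higher than the mean of organs but stood below pancreas, with 126 ± 8.04 CPM in liver and 423 CPM in pancreas.

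Genes of glucose production and hepatic sugar use were higher in 21 of 22 cases and highest in 11, with a median of 6.24. G6pc, which frees glucose for the blood, had 395, 665 and 1106 CPM in liver and 44.2 CPM in small intestine. Fbp1 had 1304 ± 101 CPM in liver and 41.2 CPM in small intestine, and Gckr, a regulator of hepatic sugar use, 281 ± 27.6 CPM in liver and 2.37 CPM in hypothalamus. Pck1, the entry step from oxaloacetate, had 5496 ± 1443 CPM in liver and 6104 CPM in brown fat, and the glucose transporter Slc2a2 had 654 ± 12.7 CPM in liver and 665 CPM in small intestine. Neither difference passed edgeR's quasi-likelihood test in a fit of the 2 organs (adjusted p = 0.486 for Pck1 and 0.67 for Slc2a2). Gcgr, the glucagon receptor, had 264, 339 and 352 CPM in liver and at most 4.95 CPM elsewhere.

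Ketone body genes moved in both directions. Bdh1, which interconverts acetoacetate and hydroxybutyrate, had 239 ± 27.1 CPM in liver and 317 CPM in soleus (3.93 ± 0.08). Oxct1, the enzyme that other organs need to burn ketone bodies, had 3.65, 5.83 and 8.25 CPM in liver and 51.4 to 1046 CPM elsewhere, so every liver lay below every other library (log2 fold change -5.13 ± 0.18, adjusted p = 2.5e-39, edgeR's quasi-likelihood test). Of the 9 genes on the list 7 were higher, 3 highest and 2 lower, with a median of 1.95. Fatty acid oxidation genes were higher in 26 of 30 cases with a median of 3.41, but only 12 were highest in liver. The 12 were mainly peroxisomal or omega oxidation genes and the carnitine transferase Cpt1a. Enzymes of the mitochondrial spiral stood above the mean of organs but below brown fat, as Acadm did with 447 ± 45.1 CPM in liver and 2746 CPM in brown fat, and Hadhb with 229 ± 9.06 CPM in liver and 2932 CPM in brown fat.

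Where a reaction has a liver form and forms of other tissues, liver carried the liver form and little of the rest. Over 16 such groups the liver form was higher in 15, highest in 10 and lower in 1, with a median log2 fold change of 10.53. Of the 28 other forms 3 were higher, 23 lower and 11 lowest in liver, with a median of -2.90. Per length, Pklr made up 96.9% of the pyruvate kinase transcripts of liver, Gys2 99.6% of glycogen synthase, Pygl 98.3% of glycogen phosphorylase and Mat1a 98.2% of methionine adenosyltransferase. Pkm, the pyruvate kinase of most tissues, had 14.9, 19.6 and 23.6 CPM in liver and 141 to 4648 CPM elsewhere (-5.12 ± 0.17). Hk1, the general hexokinase, was lowest in liver at 4.84 ± 1.01 CPM (-3.49 ± 0.15). Phosphofructokinase was the exception: its liver form Pfkl was lower in liver (47.8 ± 2.72 CPM in liver and 579 CPM in brown fat; -0.42 ± 0.10) and made up 45.8% of the 3 forms there, against 62.7% in brown fat.

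**Figure D3:**
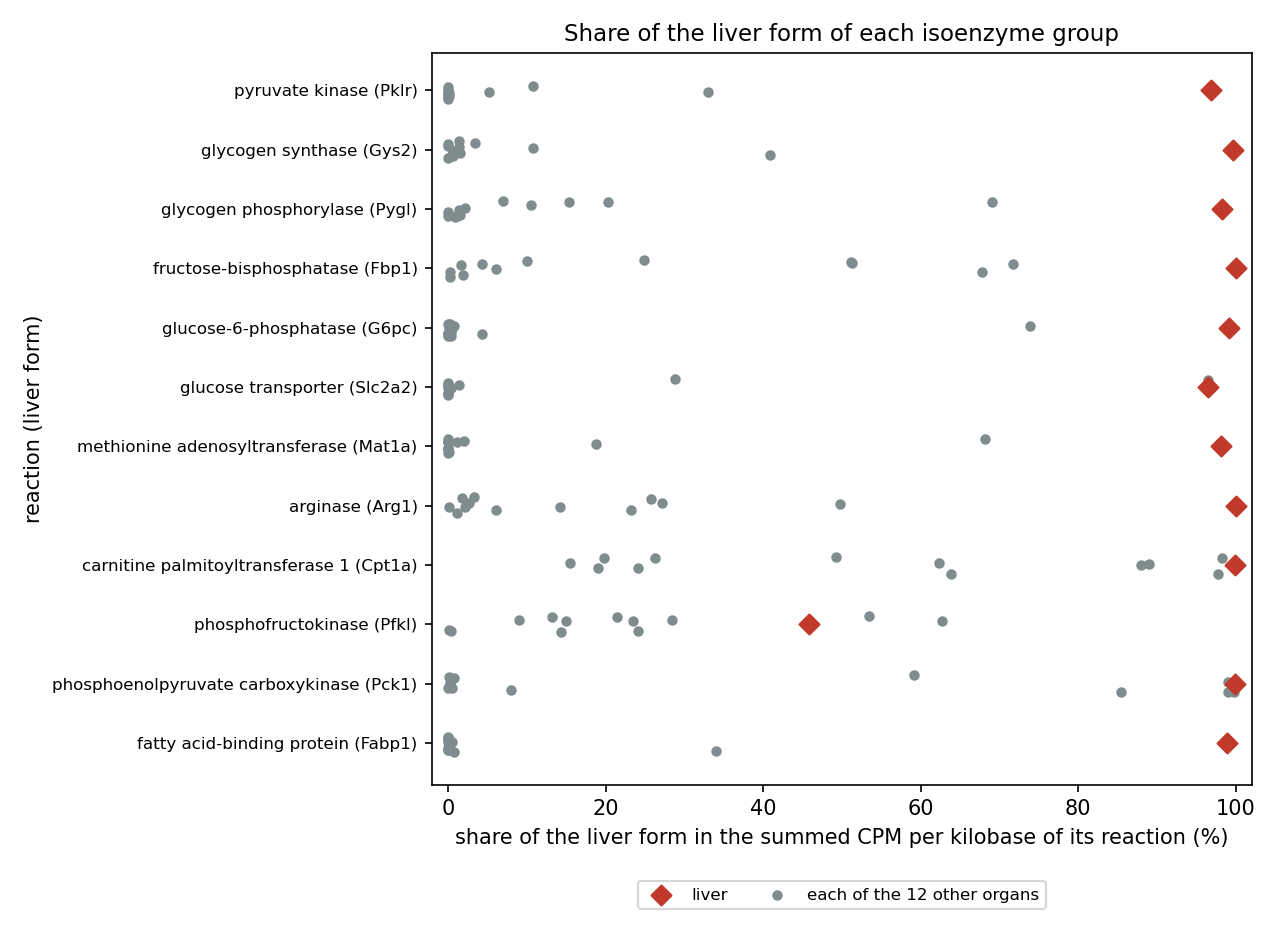
Share of the liver form in the summed CPM per kilobase of each isoenzyme group, for liver (red diamonds) and each of the 12 other organs (grey points, spread slightly up and down), from means of 6 libraries. Liver lies at 96.5% or above in all groups drawn but phosphofructokinase, at 45.8%, and the small intestine point of the glucose transporter, at 96.5%, lies behind the diamond of liver.

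Bile acid genes were higher in 28 of 33 cases and highest in 19, with a median of 8.35. Cyp7a1, the rate-limiting enzyme of bile acid synthesis, had 259, 359 and 602 CPM in liver and at most 0.122 CPM in the other 72 libraries. The canalicular export pump Abcb11 (952 ± 71.7 CPM), the uptake carrier Slc10a1 (862 ± 91.6 CPM) and the conjugating enzyme Baat (364 ± 18.8 CPM) were highest in liver. Transporters of the intestinal arm of the circulation were not: Slc10a2 had 28.3 ± 4.96 CPM in liver and 137 CPM in small intestine, and Slc51a 13.4 ± 2.4 CPM in liver and 345 CPM in small intestine. The sterol exporters Abcg5 (214 ± 34.9 CPM in liver and 379.8 CPM in small intestine) and Abcg8 (265 ± 41.7 CPM in liver and 322 CPM in small intestine) were also lower in liver than in small intestine in a fit of the 2 organs, by 0.84 and 0.29 on the log2 scale (adjusted p = 7.62e-07 and 0.0249, edgeR's quasi-likelihood test).

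Among 42 cytochromes P450 of families 1 to 4, 39 were higher in liver and 28 highest, with a median of 11.72, and 2 were lower. DESeq2 called 15 of the 42 highest and lost that call for Cyp1a2 and Cyp2c29, and library totals alone lost it for Cyp2e1. Cyp2e1, the ethanol-inducible form, had 7898, 9634 and 12290.5 CPM in liver and 0 to 3918 CPM elsewhere, 2.93-fold above epididymal fat. Cyp1a2 had 713 ± 38.4 CPM in liver and no organ mean over 0.418 CPM (0.225 CPM without epididymal fat replicate 1), and Cyp2c29 had 1826 ± 198 CPM in liver and 64.9 CPM in small intestine. Cyp3a13 (312 ± 62.1 CPM in liver and 1504 CPM in small intestine) and Cyp2b10 (70.8 ± 71.4 CPM in liver and 340.1 CPM in small intestine) were above the mean of organs but below small intestine. Lower were Cyp1b1 (-2.60 ± 0.31) and Cyp2s1 (-2.67 ± 0.33). Of 55 conjugation and detoxification genes 53 were higher and 37 highest, with a median of 7.71. The carboxylesterase Ces1c (3501 ± 323 CPM), urate oxidase Uox (3477 ± 206 CPM) and the vitamin C enzyme Gulo (569.7 ± 44.5 CPM) were highest in liver. Ugt1a1, which conjugates bilirubin, had 291 ± 28.7 CPM in liver and 122 CPM in small intestine. Ugt2b34 (676 ± 52.2 CPM in liver and 986 CPM in small intestine) and Sult1d1 (317 ± 134 CPM in liver and 505 CPM in small intestine) had the higher mean in small intestine. Members of the Cyp2c, Cyp2d, Cyp4a, Ugt2b, Ces and Serpina families are close copies, and how the counting shared reads among them is not stated by the sources.

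Most transcription factors of liver identity were shared with another organ. Of 35 tested, 32 were higher in liver than the mean of organs, with a median of 4.32, but 11 were highest there. Hnf4a had 880.3, 1126 and 1357 CPM in liver and 754 CPM on average in small intestine. Liver was above small intestine for Hnf4a in a fit of these 2 organs (0.56 on the log2 scale, adjusted p = 1.6e-05) by edgeR's quasi-likelihood test. Foxa2 had 29.2 ± 8.46 CPM in liver and 28.5 CPM in pancreas, and Cebpa 712 ± 124 CPM in liver and 988 CPM in epididymal fat. Highest in liver were Foxa3 (95.9 ± 13.5 CPM), the xenobiotic receptor Nr1i3 (398 ± 112 CPM), the lipid sensor Ppara (233 ± 38.7 CPM in liver and 101 CPM in brown fat), the bile acid receptor Nr1h4 (205 ± 15 CPM) and Prox1 (195 ± 34.7 CPM). The xenobiotic receptor Nr1i2 had 129 ± 19.5 CPM in liver and 168 CPM in small intestine. Cux2 (-1.95 ± 0.25), a factor known as female-biased in mouse liver, and Esrrg (-3.01 ± 0.34) were lower in liver than the mean of organs. All libraries came from male mice, so sex was not tested.

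Receptors were mixed, with 22 of 30 higher, 12 highest, 7 lower and a median of 2.89. The asialoglycoprotein receptor chains Asgr1 (589 ± 38.4 CPM) and Asgr2 (261 ± 19.3 CPM), which clear aged glycoproteins, were highest in liver. Egfr had 1262 ± 319.5 CPM in liver and 69.9 CPM in epididymal fat, 18-fold below liver. Igf1r, the receptor of the Igf1 that liver secretes, had 3.16, 4.56 and 5.94 CPM in liver and 9.06 to 145 CPM elsewhere, so no liver reached any other library (-3.19 ± 0.16). The thyroid receptor Thra was lowest in liver (38.2 ± 6.78 CPM; -2.25 ± 0.08), while Thrb was higher (66.3 ± 5.58 CPM in liver and 57.4 CPM in pituitary gland).

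Markers of Kupffer, endothelial and stellate cells were mostly higher in liver than in the mean of organs. By summed shares of library totals, which were not tested, each list was larger in some other organ. The scale mattered for the endothelial list. In summed CPM after TMM scaling it ran from 716 to 959 in the livers and reached at most 667 in the 72 other libraries. The Kupffer and stellate lists reached at most 1003 and 763 CPM in liver, and up to 2427 and 14043 CPM elsewhere. The Kupffer and macrophage list took 0.0604% of counts on average in liver and 0.219% in inguinal fat, and the endothelial list 0.0576% in liver and 0.0795% in inguinal fat. The stellate list, which includes Des, took 0.0494% in liver, 0.488% in soleus, 0.370% in gastrocnemius and 0.195% in epididymal fat. All 13 Kupffer cell and macrophage markers were higher, 5 of them highest, with a median of 3.87. Clec4f, a lectin of Kupffer cells, had 109.7, 139.9 and 163 CPM in liver and at most 2.16 CPM elsewhere, while the general macrophage gene Csf1r had 78.4 ± 11.7 CPM in liver and 175 CPM in inguinal fat and was called higher (0.55 ± 0.11), a direction that turned to -0.07 with library totals alone. All 13 sinusoidal endothelial markers were higher and 5 highest (median 3.12), with Clec4g at 65.4 ± 8.94 CPM and Stab2, a scavenger receptor, at 107 ± 15.4 CPM in liver. Of 14 stellate cell markers 12 were higher and 5 highest (median 2.94): Colec10 had 56.7 ± 7.51 CPM in liver and 6.7 CPM in small intestine, but Pdgfrb (-1.63 ± 0.15) and Des (-2.71 ± 0.33) were lower. Bile duct markers showed little of this, with 3 of 11 higher, 2 lower, none highest and a median of -0.43. Epcam had 1.68 ± 0.493 CPM in liver and 1819 CPM in small intestine, and Krt19 1.06 ± 0.699 CPM in liver and 1039 CPM in small intestine.

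Genes known to mark the zones of the liver lobule were high at both ends, 14 of 15 pericentral genes (median 4.89, 8 highest) and 14 of 15 periportal genes (median 9.75, 9 highest). Glul, which captures ammonia around the central vein, is also made by many other organs: it had 1069 ± 53.1 CPM in liver and 3815 CPM in brown fat, and its call as higher (0.40 ± 0.16) turned to -0.23 with library totals alone and to -0.18 with an arithmetic mean of the organs.

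Small intestine was the organ next to liver most often. Of the 1108 genes highest in liver it came next for 258 (23.3%), against 16.3% of all genes tested that had it as the highest of the 12, and epididymal fat came next for 255 (23.0%, against 7.78% of all genes), or 173 (15.6%) without its replicate 1. Brown fat and pancreas came next for 138 each (12.5%, against 7.44% and 6.93% of all genes). Another 4050 of the 16740 genes were higher in liver than the mean of organs although some organ stood above liver. The highest organ was small intestine for 1015 of them, out of 2723 tested genes that had it as the highest of the 12. It was soleus for 605 (out of 2053), brown fat for 546 (out of 1245) and pancreas for 422 (out of 1160). Pigr, the receptor that carries immunoglobulin A into bile and gut, led the 4050 genes with 2486 ± 279.7 CPM in liver and 3486 CPM in small intestine.

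**Figure D4:**
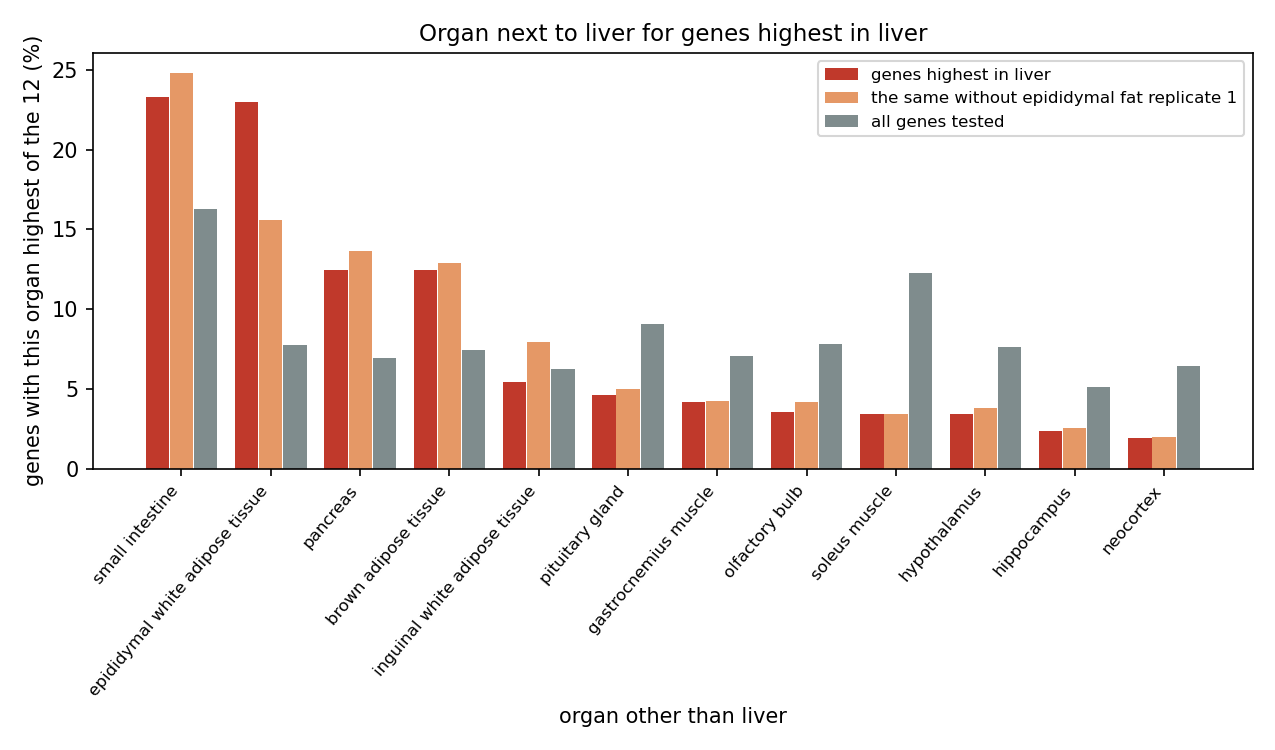
Percentage of genes with each organ as the highest of the 12, for the 1108 genes highest in liver (red), for the same genes without epididymal fat replicate 1 (orange), and for all 16740 genes tested (grey). Small intestine leads at 23.3%, against 16.3% of all genes, and epididymal fat stands at 15.6% without that library.

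Of the 915 genes lowest in liver, 87 had no count in any of the 6 livers, as did 1699 of all 16740 genes tested. Of the 915, 461 averaged under 1 CPM in liver. In 393 of them all livers lay below all 72 other libraries, against 411 of all genes tested. The 12 with the lowest fold changes were Tmeff1, 9330159F19Rik, Stmn2, Scg3, Negr1, Penk, Cacna1h, Slc6a17, B3galt2, Dusp26, Ppp1r1a and Apod, all at least 210.4-fold lower in liver than the geometric mean of the other organs. Stmn2, a neuronal microtubule regulator, had 0 counts in every liver and 1.06 to 251 CPM elsewhere, at least 234-fold lower. Penk (an opioid precursor) and Ppp1r1a (an inhibitor of protein phosphatase 1) were at least 246-fold and 450.4-fold lower. Some other genes at 0 in every liver, such as Snap25 and Ucp1, were not called, and the cause was not tested.

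Glycolysis genes of other organs were lower in 16 of 22 cases, lowest in 7 and higher in 4, with a median of -2.80. The list took 0.187% to 0.201% of liver counts and 3.50% to 3.64% of those of gastrocnemius. Ldhb, the lactate dehydrogenase of heart and brain, had 2.81 ± 0.682 CPM in liver (-5.38 ± 0.19), and the neuronal enolase Eno2 0.151 ± 0.235 CPM (-6.94 ± 0.32). Aldoa had 134, 155 and 162 CPM in liver and 252 to 28309.9 CPM elsewhere. Ldha was called higher (725 ± 73.3 CPM in liver; 1.15 ± 0.10) but was at -0.05 with an arithmetic mean of the organs, with gastrocnemius at 3424 CPM.

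Creatine genes showed 1 step of synthesis without its neighbours. Gamt, which finishes creatine, was higher (183 ± 37.5 CPM in liver; 4.13 ± 0.12), though pancreas had 266 CPM. Gatm, which starts it, had 9.55 ± 2.02 CPM in liver and 1071 CPM in pancreas (-1.09 ± 0.15). The kinase Ckb (4.62 ± 1.91 CPM; -4.65 ± 0.23) and the creatine transporter Slc6a8 (11.5 ± 2.59 CPM; -2.67 ± 0.17) were lower, and the muscle kinases Ckm and Ckmt2 had no count in any liver. Matrix genes were lower in 20 of 25 cases with a median of -2.20: Col1a1 had 10.5 ± 5.13 CPM in liver and 938 CPM in inguinal fat. Fn1 (fibronectin, which hepatocytes secrete into plasma) was highest in liver instead, with 2064 ± 151 CPM in liver and 508 CPM in epididymal fat, a call that library totals alone ended. Dcn was called higher (226 ± 15.6 CPM in liver; 1.00 ± 0.09) and was at -0.49 with an arithmetic mean of the organs.

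Respiratory chain genes moved little, with 22 of 32 higher, 3 lower, none highest and a median of 0.53, and took 4.35% to 4.81% of liver counts and 16.8% to 20.5% of those of brown fat. The mitochondrial mt-Co1 had 32380.1 ± 1415 CPM in liver and 113366 CPM in soleus (0.91 ± 0.12), and mt-Cytb, at 12337 ± 681 CPM in liver (0.57 ± 0.13), turned to -0.03 with library totals alone and -0.18 with an arithmetic mean. The 3 lower genes, Cox7a1, Cox6a2 and Cox8b, are the muscle and brown fat forms of oxidase subunits.

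Genes highest in liver often lay side by side. Of 1102 such protein-coding genes 401 (36.4%) had a neighbour that was also highest in liver, against 10.7% of the other coding genes tested. There were 9 runs of 5 or more: 20 Mup genes on chromosome 4 (59964294 to 62150863), 11 Cyp2c genes on chromosome 19 (39269405 to 40187333), 8 Serpina genes on chromosome 12 (103614786 to 103989957), 7 Ugt2 genes on chromosome 5, 6 Cyp4a genes on chromosome 4 and 6 Cyp2d genes on chromosome 15. Others were Ahsg, Fetub, Hrg, Kng2 and Kng1, all plasma proteins of the cystatin superfamily, on chromosome 16 (22891277 to 23082078), and a run of Rdh16 and related dehydrogenases on chromosome 10. Coordinates are of GRCm38, and most of these runs are arrays of copied genes that share reads.

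The 6 livers agreed closely for most genes. The median coefficient of variation was 10.1% over 8573 genes of at least 10 CPM and 10.5% over the 1061 of them highest in liver. Among the other organs it ran from 5.25% in neocortex to 40.1% in soleus, which includes its poorly correlated replicate 1. Near liver were small intestine at 8.56% and brown fat at 10.4%. Genes with a coefficient of at least 50% were 0.677% of all and 2.64% of those highest in liver. Cyp4a14, an omega hydroxylase known to answer to Ppara, had 35.2, 144 and 1176 CPM as lowest, median and highest, and Cyp2b10 had 19.2, 33 and 199 CPM. Socs2, a growth hormone response gene, had 5.72, 24.5 and 102 CPM, Onecut1 6.47, 25.4 and 88.1 CPM, and Zbtb16 9.27, 33 and 151 CPM.

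**Figure D5:**
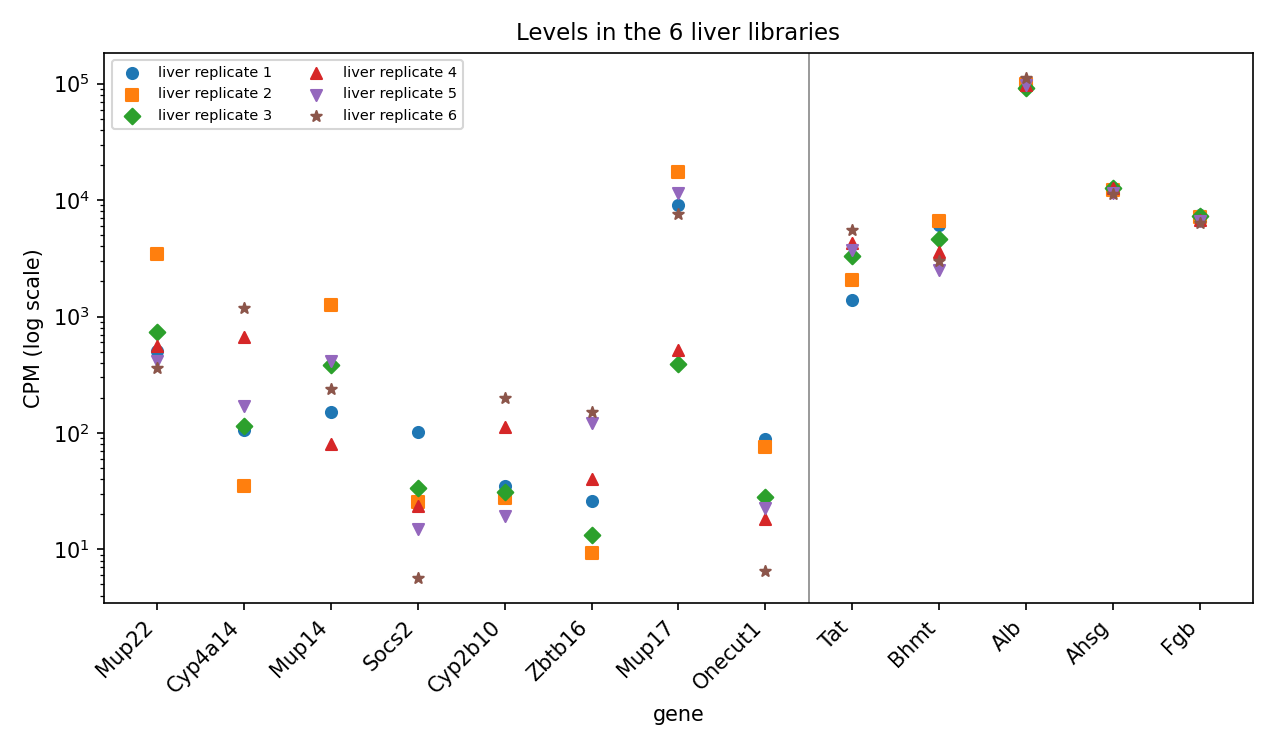
Levels of 13 genes in each of the 6 liver libraries (CPM, log scale; 1 marker shape per replicate), with widely varying genes left of the line and others right of it. Socs2 spans 5.72 to 102 CPM while Alb, Ahsg and Fgb stay within narrow ranges.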

How the data were processed

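Stranded libraries of polyadenylated RNA were sequenced. The submitters' processing notes name FastQC 0.11.7, Trimmomatic 0.38, HISAT2 2.1.0, SAMtools 1.9, featureCounts 1.6.3 and the build GRCm38/mm10. The authors deposited 1 table of raw read counts per gene; 1026 of its 1104 columns, at later times, were not used. No source states the strand setting or annotation of the counting, which leaves overlapping and antisense genes uncertain. Symbols were matched to GENCODE M21 for coordinates and lengths (20295 of 20646 matched 1 gene), and promoters come from RefSeq on GRCm38.p6.

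Counts of the 78 libraries at 0 days were filtered with filterByExpr, TMM scaled and fitted with 1 coefficient per organ in edgeR 4.0.16 (R 4.3.3), with limma 3.58.1 and DESeq2 1.42.0 as alternatives. The contrast was liver minus the mean of the 12 other coefficients; fold changes are log2 with standard errors, and p-values are adjusted over 16740 genes at 0.05. A group at 0 was given a floor of 3 counts over its 6 libraries. The fit was tested on simulated data. The p-values and standard errors rest on 1 estimate of the spread per gene, shared by all 13 organs, and not on the spread between livers alone. The organs differed in spread, with median coefficients of variation of 40.1% in soleus, 10.1% in liver and 5.25% in neocortex. Fits of liver and 1 other organ used the spread within those libraries alone. Intervals from counting were not drawn.

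Members, gene lists, isoenzyme groups and motifs were chosen with earlier results of these data known. Named by rule were the 12 genes of highest CPM in liver, the 12 largest and 12 smallest fold changes among genes highest and lowest in liver, the 3 highest and 2 lowest of each list, all isoenzymes, the 8 most variable liver genes, and the 6 leading genes with another organ above liver. Some genes that these rules name are not reported here. Other list members named in the text were picked by role after their values were seen. Alternatives changed the scaling, filter, test, weights, organs and libraries.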

Additional observations from a re-analysis of the deposited data

Results flagged for a closer look

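Among 158 named genes of at least 1 CPM in liver, 15 (9.49%) had 1 liver library apart from the other 5 by Dixon's criterion. Chance meets this criterion in about 1 in 20 groups. The share cannot be set against that rate, because the most variable liver genes were named for their spread over these same libraries. Mup22, Mup9, Mup19, Mup14 and Socs2 were named that way and are among the 15. Replicate 1 was the library apart for 4 of the 15, replicate 2 also for 4 and replicate 6 for 3.

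The urinary protein genes Mup14 (1258 CPM against 80.3 to 414 in the others), Mup22 (3475 against 364 to 744) and Mup9 (33.7 against 2.96 to 10.8) stood out in replicate 2, and Mup19 (49.5 against 3.52 to 17.1) in replicate 1. How reads were shared among these near-identical genes was not tested. Replicate 2 was also low for Pck2, at 5.36 CPM against 7.57 to 8.72.

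Replicate 1 was apart for the growth hormone response gene Socs2, at 102 CPM against 5.72 to 33.6, for Akr1c6 at 1686 CPM, and for Esrrg at 3.16 CPM against 0.717 to 1.62. Replicate 6 was apart for Igfbp1, at 324 CPM against 119 to 191, and for Glul at 1169 CPM, and was low for the glucagon receptor Gcgr, at 264 CPM against 338 to 352. Single cases were Cux2 in replicate 5 (6.63 CPM against 0.434 to 2.53), Pygb in replicate 3 (13.5 CPM), and Cyp1b1 (2.16 CPM) and Sdhc (271 CPM) in replicate 4.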

How the results depend on the processing

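For the numbers of genes called, the scaling mattered most among the settings tested. Against 5781 genes higher, 6353 lower, 1108 highest and 915 lowest in liver, library totals alone gave 3364, 9251, 661 and 782, and 640 of the 661 were among the 1108; the cause was not tested. The other settings run stayed within 1.5 times of each count. Leaving out each liver in turn gave 5652 to 5694 higher, 6200 to 6231 lower, 1086 to 1095 highest and 861 to 897 lowest. Counts highest in liver within a list moved by over 1.5 times with library totals alone for glucose (11 to 7), receptor (12 to 7), Kupffer (5 to 3), endothelial (5 to 3) and pericentral (8 to 5) genes, which also ended this call for Selenop, Prox1 and Ugt1a1; with the upper quartile (3) and limma (8) for endothelial genes; and with DESeq2 for Kupffer genes (3, Clec4f lost), P450 (28 to 15) and urinary proteins (19 to 7), and Ugt1a1 was lost. DESeq2 gave 5257, 8169, 985 and 1128. A fit with the replicate number as a block gave 5812, 6355, 1119 and 910. The labels do not say that numbers pair organs. Correlations of liver libraries with same-numbered libraries of other organs, after taking off organ means, ran between -0.08 and 0.105. Their mean was above that of differently numbered libraries in every organ but soleus, as in brown fat (0.0707 against -0.0141). In soleus it was -0.0465 against 0.0088. Whether equal numbers share a mouse was not tested. Leaving out epididymal fat replicate 1, soleus replicate 1 or the 3 libraries least like their organ, settings added after seeing the data, gave 5732 to 6079 higher and 1111 to 1200 highest. An arithmetic mean of organ CPM, run without a test, moved 167 of 224 named genes by over their standard error times the square root of 6. It reversed 13 more. Under every setting run, 31 of the 224 kept their call and direction and stayed within that bound. The reversals of the log2 fold change were these. With library totals alone: Cd68 -0.10, Crtc2 -0.0378, Csf1r -0.0718, Glul -0.23, Hmgcs1 -0.56 and mt-Cytb -0.0261. With 4 organ classes weighted equally: Aldoc 0.65 and Cidec -0.49. With an arithmetic mean of organ CPM: Anpep -1.96, Cd68 -0.17, Cela1 -9.56, Cela2a -14.67, Cidec -5.89, Dcn -0.49, Fabp2 -2.96, Fabp7 -2.69, Glul -0.18, Ldha -0.0487, Slc5a1 -8.09, Syt1 -3.69 and mt-Cytb -0.18. The floor of 3 counts over 6 livers is 0.0615 CPM, below which levels were not detectable.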

Other observations

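Marker lists of other organs held a few genes above the mean of the 12 organs in liver, in each list a smaller share than the 34.5% of all genes called higher. Of 13 red cell and leukocyte markers 3 were higher in liver and none lower: Alas2, the haem synthesis enzyme of red cell precursors, was highest in liver at 104, 177 and 184 CPM (lowest, median and highest liver) and had 21.6 CPM in epididymal fat. The other two were the globin genes Hbb-bs (79.3 ± 7.28 CPM in liver and 419.9 CPM in epididymal fat) and Hbb-bt (10 ± 1.45 CPM in liver and 41.9 CPM in epididymal fat), which are close copies: their log2 fold changes were 0.50 ± 0.21 and 0.70 ± 0.25 (standard errors), and -0.42 and -0.24 with an arithmetic mean of the organs, and other scalings were not run for them singly. Of 11 adipocyte markers 2 were higher and 4 lower: Car3, a carbonic anhydrase, had 3180.4 ± 606 CPM in liver and 13613 CPM in epididymal fat, with a log2 fold change of 6.25 that was 0.14 with an arithmetic mean of the organs. Of 11 intestinal markers 3 were higher and 3 lower, among them the peptidase Anpep at 147 ± 12 CPM in liver and 6519 CPM in small intestine, a call that turned to -1.96 with an arithmetic mean of the organs. Neuron markers were higher in 1 of 10 cases (Syt1, at 25 ± 2.75 CPM in liver and 1116 CPM in neocortex, and -3.69 with an arithmetic mean) and lower in 8. Muscle markers were lower in 8 of 12 cases and higher in none, pancreatic acinar markers higher in 2 and lower in 1 of 15, and pituitary hormone genes lower in 2 of 7.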
